A study of Homo sapiens with 8 samples.

Results

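Transcripts of 10 genes of the spindle assembly checkpoint and the chromosomal passenger complex were examined in A549, a line of human lung adenocarcinoma cells, among 66206 genes listed in each of 2 deposited tables of RPKM (reads scaled by gene length and by library depth). The genes were chosen by name, with earlier results of these data known, as were the lists of further genes below. Their counts beside the shares of all genes are therefore a description. The 10 are the checkpoint genes TTK, BUB1, BUB1B, BUB3, MAD2L1 and MAD1L1, and the passenger genes AURKB, BIRC5, CDCA8 and INCENP. Each was found in both tables by its Ensembl identifier in GENCODE release 29, and all 10 passed the filter on low values in both. A549 cells received 25 pmol of a gapmer with locked nucleic acids (LNA) targeting LY6K-AS, a long non-coding RNA (2 libraries, titled LNA1 and LNA3 and called knockdown 1 and 2 here) or 25 pmol of a scramble LNA gapmer (controls 1 and 2). In a second table they received 40 pmol of an siRNA against YWHAG, which encodes 14-3-3 gamma (knockdowns 1 and 2), or 40 pmol of a scramble siRNA (controls called 2 and 3, after the table's headers). Gapmers are antisense oligonucleotides through which RNase H cleaves the RNA they pair with. All groups were transfected with the RNA-iMAX reagent, and the labels do not say whether the libraries of a group came from separate cultures or carried separate oligonucleotides. p-values therefore measure the spread between these libraries, which may be technical. The study's title places LY6K-AS in mitotic progression, so the question asked of these genes was how far their transcripts differed after each knockdown.

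The spindle assembly checkpoint holds a cell in metaphase until every chromosome is attached to spindle microtubules. At an unattached kinetochore the kinase TTK (MPS1) phosphorylates the scaffold KNL1, which recruits BUB1 and BUB3, and MAD1L1 then serves as the template on which MAD2L1 changes shape. MAD2L1, BUB1B (BUBR1), BUB3 and CDC20 form the mitotic checkpoint complex, which inhibits the anaphase-promoting complex. The chromosomal passenger complex consists of the kinase AURKB, the scaffold INCENP, survivin (BIRC5) and borealin (CDCA8), and it destabilises faulty attachments and later acts in cytokinesis. Most of these genes are transcribed in G2 and M phase. Many such genes carry a CHR element, a short promoter sequence bound by the DREAM complex in resting cells and by MYBL2 and FOXM1 complexes in dividing cells, often with CCAAT boxes upstream.

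The hg38 annotation of GENCODE places the checkpoint genes TTK at chr6:80003887-80042527 (plus strand), BUB1 at chr2:110637698-110678114 (minus strand) and BUB1B at chr15:40161023-40221136 (plus strand). It places BUB3 at chr10:123154277-123170467 (plus strand), MAD2L1 at chr4:120055608-120067074 (minus strand) and MAD1L1 at chr7:1815793-2233243 (minus strand). The passenger genes lie on chromosomes 17, 1 and 11, AURKB at chr17:8204733-8210600 (minus strand), BIRC5 at chr17:78214186-78225636 (plus strand), CDCA8 at chr1:37692418-37709719 (plus strand) and INCENP at chr11:62123973-62153163 (plus strand). Each table gives 1 value a gene and does not separate transcripts.

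RefSeq promoter windows (GRCh38.p14, 250 bases before to 50 after a RefSeq start) were at hand for 7 of the 10 genes. Of these, 4 are shown because they span the range from several motif matches to none. Capitals mark CHR letters (TTTGAA or TTCGAA, either strand) and CCAAT letters (CCAAT, or ATTGG on the other strand), and each sequence is the gene's own strand, 5′ to 3′.
BUB1: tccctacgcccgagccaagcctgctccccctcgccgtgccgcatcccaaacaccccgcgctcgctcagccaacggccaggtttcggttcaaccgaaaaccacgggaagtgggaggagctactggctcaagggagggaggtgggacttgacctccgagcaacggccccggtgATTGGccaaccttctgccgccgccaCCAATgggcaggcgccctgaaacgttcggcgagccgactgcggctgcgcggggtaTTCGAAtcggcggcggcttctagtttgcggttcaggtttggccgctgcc
CDCA8: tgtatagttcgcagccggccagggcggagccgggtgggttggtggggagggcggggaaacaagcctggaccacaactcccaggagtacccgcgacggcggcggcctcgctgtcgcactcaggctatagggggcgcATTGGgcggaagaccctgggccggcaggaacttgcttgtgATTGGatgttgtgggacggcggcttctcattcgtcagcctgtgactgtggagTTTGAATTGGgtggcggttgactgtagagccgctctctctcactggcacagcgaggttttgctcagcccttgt
INCENP: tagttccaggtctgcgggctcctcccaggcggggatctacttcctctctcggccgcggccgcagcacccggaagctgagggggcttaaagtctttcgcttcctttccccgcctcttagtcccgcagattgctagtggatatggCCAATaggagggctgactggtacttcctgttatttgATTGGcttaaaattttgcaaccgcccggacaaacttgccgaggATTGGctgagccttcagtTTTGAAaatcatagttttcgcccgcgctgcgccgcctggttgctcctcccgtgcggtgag
MAD1L1: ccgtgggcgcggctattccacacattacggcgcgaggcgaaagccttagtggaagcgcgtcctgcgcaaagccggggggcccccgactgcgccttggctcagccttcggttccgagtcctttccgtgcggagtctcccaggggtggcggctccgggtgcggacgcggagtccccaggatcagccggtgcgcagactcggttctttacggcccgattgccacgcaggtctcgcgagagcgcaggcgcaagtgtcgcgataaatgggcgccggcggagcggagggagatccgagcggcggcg
The windows are chr2:110678014-110678313 (minus strand) for BUB1, chr1:37692266-37692565 (plus) for CDCA8, chr11:62123761-62124060 (plus) for INCENP and chr7:2232896-2233195 (minus) for MAD1L1. In CDCA8 the CHR match and a CCAAT match share 1 base. A CHR match was found in 5 of the 7 genes, BUB1, BUB1B, MAD2L1, INCENP and CDCA8, against 16.4% of all 35116 RefSeq windows of this length. Its first base lay at −23 in BUB1B and CDCA8, −10 in INCENP, 2 in BUB1 and 25 in MAD2L1. Positions count from the RefSeq start of the window as 1. That start lies inside the GENCODE span given above in each of the 7 genes, so these are not distances from the GENCODE 5′ end. A CCAAT match was found in 5 of the 7 (34.6% of all windows), and CHR and CCAAT together in 4 (6.38% of all windows). AURKB, listed with 2 windows of shifted start, held a CCAAT match and no CHR match, and MAD1L1 held neither. The windows of AURKB and MAD1L1 lay wholly inside the GENCODE span of the gene, so sequence at and before its GENCODE 5′ end was not searched. An E2F core (the letters TTCCCGC or else TTGGCGC or else TTCGCGC or else TTGCCGC, either strand) was found in 1 gene, MAD2L1, and in 13% of all windows. These matches are letters in a window and no measure of binding.

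The authors' divisors put library depth at 26.2 and 30.9 M reads in the LY6K-AS knockdowns, 34.0 and 30.5 M in the LNA controls, 34.6 and 33.7 M in the YWHAG knockdowns and 34.5 M in each siRNA control. Behind each RPKM of the 10 genes stood between 238 and 6791 whole reads in the LNA table and between 251 and 5596 in the siRNA table. YWHAG stood at 13.5 and 4.91 RPKM in the YWHAG knockdowns, against 163 and 158 RPKM in the siRNA controls. LNCOC1, annotated antisense to LY6K and overlapping it, was read as LY6K-AS, a match the labels do not state, and had counts of 3 and 8 reads after LY6K-AS knockdown, against 34 and 17 in the LNA controls. The keratin, AKR1B10 and ALDH1A1 transcripts of A549 were present in every library, while the lung lineage markers NKX2-1, SFTPB and SFTPC were under 0.5 RPKM throughout. Markers of other cell types were scarce: 4 of 4 endothelial, 4 of 5 immune and 4 of 6 fibroblast markers stayed under 0.5 RPKM in all 8 libraries, the exceptions being CD14, COL1A1 and VIM. The summed RPKM of the 6 fibroblast markers, nearly all VIM, was 89.0 and 76.0 in the LY6K-AS knockdowns, against 89.4 and 96.5 in the LNA controls, and 209 and 69.1 in the YWHAG knockdowns, against 112 and 113 in the siRNA controls; its part in the results was not tested. In bulk RNA, fewer cells in G2 and M phase and less of these transcripts per cell cannot be told apart. Reads from BUB1B could be shared with the read-through gene BUB1B-PAK6, and those of MAD1L1 and MAD2L1 with genes on the opposite strand (AC104129.1 and AC108866.1), since the sources used here do not say whether counting used strand.

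After LY6K-AS knockdown all 10 transcripts were lower in both knockdown libraries than in both LNA controls, and 7 of them stood at 39.1 to 48.7% of the control mean. The other 3, BUB3, INCENP and MAD1L1, stood at 64.6 to 67.3%. No single gene passed the test across all genes, so the groups did not overlap in these 10 genes without any of them passing at an adjusted p of 0.05.

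The upstream kinases come first. TTK, the kinase that starts checkpoint signalling, had 3.50 and 1.68 RPKM in LY6K-AS knockdowns 1 and 2, against 6.27 and 6.33 RPKM in the LNA controls. The controls lay within 0.06 RPKM of each other, and the second knockdown library was the lower of the pair. The log2 change of TTK was −1.07 ± 0.27 (SE, n = 2 each; limma adjusted p = 0.130), on the log2(RPKM + 1) scale used throughout, which understates the change of genes of low RPKM. BUB1, the kinase and scaffold that binds KNL1 and marks centromeric histone H2A, had 7.51 and 5.17 RPKM in the knockdowns, against 16.3 and 16.2 RPKM in the controls. Its log2 change of −1.25 ± 0.18 was the most negative of the 10 in this fit (limma adjusted p = 0.103). Once the trend with transcript GC content was removed it was −1.07, and AURKB (−1.13), CDCA8 (−1.09) and BIRC5 (−1.08) were more negative. With the spread pooled over all 8 libraries BUB1 and AURKB were the 2 of the 10 genes that passed (limma adjusted p = 0.0451 and 0.0461). In that fit 64 of all 12861 genes passed.

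Within the mitotic checkpoint complex the subunits differed in the size of the log2 change. BUB1B, the pseudokinase that carries the complex onto the anaphase-promoting complex, had 6.78 and 4.96 RPKM in the knockdowns, against 13.2 and 12.9 RPKM in the controls (log2 change −1.04 ± 0.16; limma adjusted p = 0.103). MAD2L1, which closes around CDC20, had 4.07 and 2.71 RPKM in the knockdowns, against 8.38 and 8.02 RPKM in the controls (log2 change −1.08 ± 0.18; limma adjusted p = 0.103). Both had their lowest value in knockdown 2. BUB3, the WD40 adaptor that joins BUB1 and BUB1B to KNL1, had 16.8 and 9.99 RPKM in the knockdowns, against 21.0 and 20.5 RPKM in the controls. Its difference came mostly from knockdown 2, with log2 changes of −0.29 and −0.98 in knockdowns 1 and 2 and −0.64 ± 0.25 in the fit (limma adjusted p = 0.214). BUB3 was the 1 gene of the 10 with an unadjusted p above 0.05 (0.0601). MAD1L1, the kinetochore template for MAD2L1, had 3.56 and 2.60 RPKM in the knockdowns, against 4.46 and 4.68 RPKM in the controls (log2 change −0.46 ± 0.15; limma adjusted p = 0.167). Its log2 change was the nearest to 0 of the 10 in this fit. It came to −0.75 when the trend with transcript GC content was removed, where BUB3 (−0.46) was the nearest.

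Of the chromosomal passenger genes, 3 of 4 had log2 changes within 0.1 of each other and INCENP had a smaller one. AURKB, the kinase of the complex, had 30.7 and 23.6 RPKM in the knockdowns, against 56.4 and 54.9 RPKM in the controls (log2 change −1.02 ± 0.15; limma adjusted p = 0.103). BIRC5, survivin, which reads phosphorylated histone H3, had 29.1 and 20.4 RPKM in the knockdowns, against 52.4 and 52.7 RPKM in the controls (log2 change −1.08 ± 0.18; limma adjusted p = 0.104). CDCA8, borealin, had 12.6 and 9.35 RPKM in the knockdowns, against 23.9 and 25.4 RPKM in the controls (log2 change −1.11 ± 0.16; limma adjusted p = 0.103). In each of these 3 genes the knockdown and control libraries were far apart and the controls close together. INCENP, the scaffold that joins the other 3 subunits, had 22.6 and 18.4 RPKM in the knockdowns, against 29.1 and 32.5 RPKM in the controls. Its groups did not overlap either, and its log2 change was −0.57 ± 0.14 (limma adjusted p = 0.124).

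**Figure D1:**
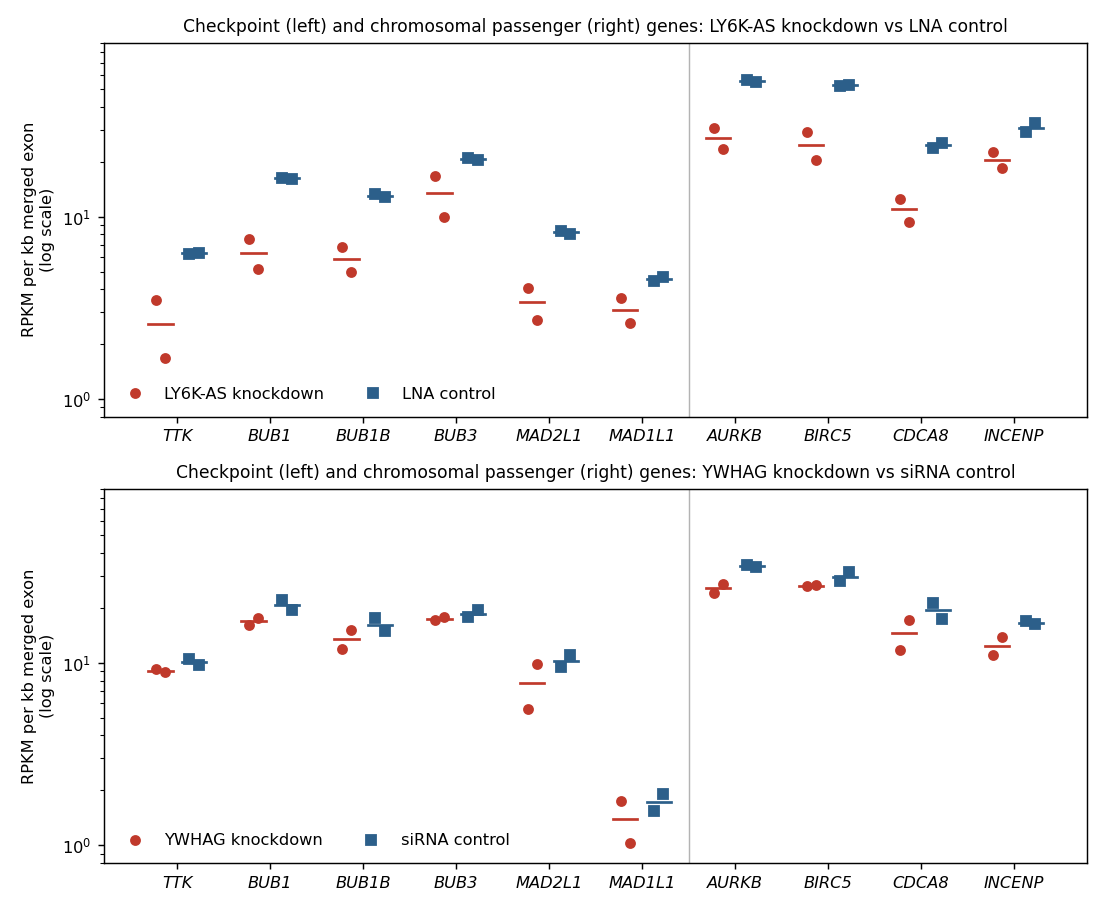
RPKM per kilobase of merged exon length (log axis) of the 10 genes, with 1 point per library and a line at each mean of 2; LY6K-AS knockdown and LNA control above, YWHAG knockdown and siRNA control below. In the upper panel both knockdown points lie under both control points for all 10 genes, and in the lower panel for 6 of 10.

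Counted over the 10 genes, 10 of 10 had both LY6K-AS knockdown libraries below both controls, as did 30.5% of the 14662 genes tested, and 0 of 10 had both above, against 31.4% of all genes. An unadjusted p under 0.05 with a lower value was seen for 9 of 10 genes, against 11.7% of all genes, and an adjusted p under 0.05 for 0 of 10, against 0% of all genes. With voom, limma's method for counts, run on the recovered reads, 0 genes were called and all 10 had unadjusted p-values under 0.05. In that fit 3362 of all 12601 genes tested had such p-values, 1528 of them with a lower value. A mean log2 change below −1 was reached by 7 of the 10 genes, against 0.634% of all genes (93 genes). Several lay close to that limit: with the GC trend removed BUB1B (−0.89), MAD2L1 (−0.88) and TTK (−0.87) no longer reached it. On the RPKM as deposited BIRC5 alone did (−1.02). The median log2 change of the 10 was −1.06, beside 0.00 for all genes tested. The count of genes called rests on the spread between the knockdown libraries: it was 7725 without knockdown 1 and 4350 without knockdown 2, with all 10 genes called in either case, where a single knockdown library is taken to have the spread of its controls.

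The LY6K-AS knockdown libraries differed from each other in one direction. Knockdown 2 was the lower for 10 of 10 genes, against 47.9% of all genes tested. It was the lowest of the 4 libraries, with both knockdowns below both controls, for 10 of 10, against 20.6% of all genes, and knockdown 1 was for 0 of 10, against 9.89%. The median change of the 10 was −0.84 in knockdown 1 and −1.27 in knockdown 2. The gap was widest for TTK (−0.70 and −1.44 in knockdowns 1 and 2) and BUB3, and narrowest for INCENP (−0.43 and −0.71) and MAD1L1 (−0.29 and −0.63). LNCOC1, read as LY6K-AS, went the other way, with fewer reads in knockdown 1 than in knockdown 2, though from the low counts given above. Mitochondrially encoded genes also took different shares of reads, 8.37 and 4.12% in knockdowns 1 and 2, against 8.43 and 6.43% in the controls, and their part in the gap was not tested. Genes of higher GC content in their exons had more positive log2 changes across all 14662 genes (Spearman rho 0.54) and less negative ones among the 10 (rho 0.61, over genes that share the same libraries), whose GC content ranged from 38.8% in TTK to 62.2% in MAD1L1. After each library's trend with GC content was taken out, the median change of the 10 was −0.89, and INCENP and MAD1L1 came to −0.77 and −0.75.

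After YWHAG knockdown the same transcripts were lower on average by much less, and none passed the test. All 10 had a lower mean than the siRNA controls, at 74.8 to 93.8% of it, with a median log2 change of −0.27 beside −0.05 for all 13903 genes tested. Both knockdown libraries lay below both controls for 6 of 10 genes, against 30.8% of all genes, and 1 of 10 had an unadjusted p under 0.05 with a lower value, against 8.9% of all genes. A log2 change below −1 was reached by 0 of 10, against 0.432% of all genes. An adjusted p under 0.05 was reached by 0 of 10 and by 0% of all genes (2281 genes had an unadjusted p under 0.05). Voom on recovered reads called 0 as well. There an unadjusted p under 0.05 with a lower value was seen for 2 of the 10, against 1108 of all 11758 genes tested.

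Both YWHAG knockdown libraries lay below both controls in 4 of 4 passenger genes and in 2 of 6 checkpoint genes, against 30.8% of all genes. The checkpoint count was near that share, and the difference between the 2 sets was not tested. AURKB had 24.3 and 26.97 RPKM in YWHAG knockdowns 1 and 2, against 34.3 and 33.7 RPKM in the siRNA controls (log2 change −0.40 ± 0.13; limma unadjusted p = 0.0293, adjusted p = 0.270). INCENP had 10.99 and 13.8 RPKM in the knockdowns, against 16.9 and 16.3 RPKM in the controls (log2 change −0.40 ± 0.16; limma adjusted p = 0.306). In both genes the higher knockdown value lay below the lower control. CDCA8 had 11.7 and 17.3 RPKM in the knockdowns, against 21.3 and 17.5 RPKM in the controls, so that knockdown 2 lay just under the lower control (log2 change −0.41 ± 0.22; limma adjusted p = 0.415). BIRC5 had 26.3 and 26.6 RPKM in the knockdowns, against 28.1 and 31.3 RPKM in the controls (log2 change −0.16 ± 0.13; limma adjusted p = 0.572). The distance between the groups was small for CDCA8 and BIRC5.

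Of the checkpoint genes, BUB1 had 16.2 and 17.6 RPKM in the knockdowns, against 22.0 and 19.4 RPKM in the controls (log2 change −0.28 ± 0.14; limma adjusted p = 0.382). TTK had 9.22 and 8.92 RPKM in the knockdowns, against 10.5 and 9.73 RPKM in the controls (−0.14 ± 0.13 on the log2 scale; limma adjusted p = 0.613). These were the 2 checkpoint genes without overlap. BUB1B had 11.9 and 15.1 RPKM in the knockdowns, against 17.6 and 14.9 RPKM in the controls, and BUB3 had 17.24 and 17.76 RPKM, against 17.75 and 19.56 RPKM, an overlap of the nearest pair only. MAD2L1 showed the widest split between the knockdown libraries, with 5.59 and 9.88 RPKM, against 9.53 and 11.1 RPKM in the controls (log2 change −0.41 ± 0.27; limma adjusted p = 0.485). MAD1L1 had 1.76 and 1.03 RPKM in the knockdowns, against 1.54 and 1.90 RPKM in the controls, and its log2 change of −0.20 ± 0.19 turned to 0.023 without knockdown 2.

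The YWHAG knockdown libraries did not rank alike over the 10 genes. The median change was −0.38 in knockdown 1 and −0.16 in knockdown 2, and knockdown 2 was the lower for 2 of 10 genes (TTK and MAD1L1), against 50.6% of all genes tested. YWHAG itself was lower in knockdown 2 (4.91 RPKM) than in knockdown 1 (13.5 RPKM). Mitochondrially encoded genes took 14.0 and 18.2% of reads in the knockdowns, against 15.3 and 18.2% in the controls. Without knockdown 1 the median change of the 10 was −0.16, and without knockdown 2 it was −0.38.

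**Figure D2:**
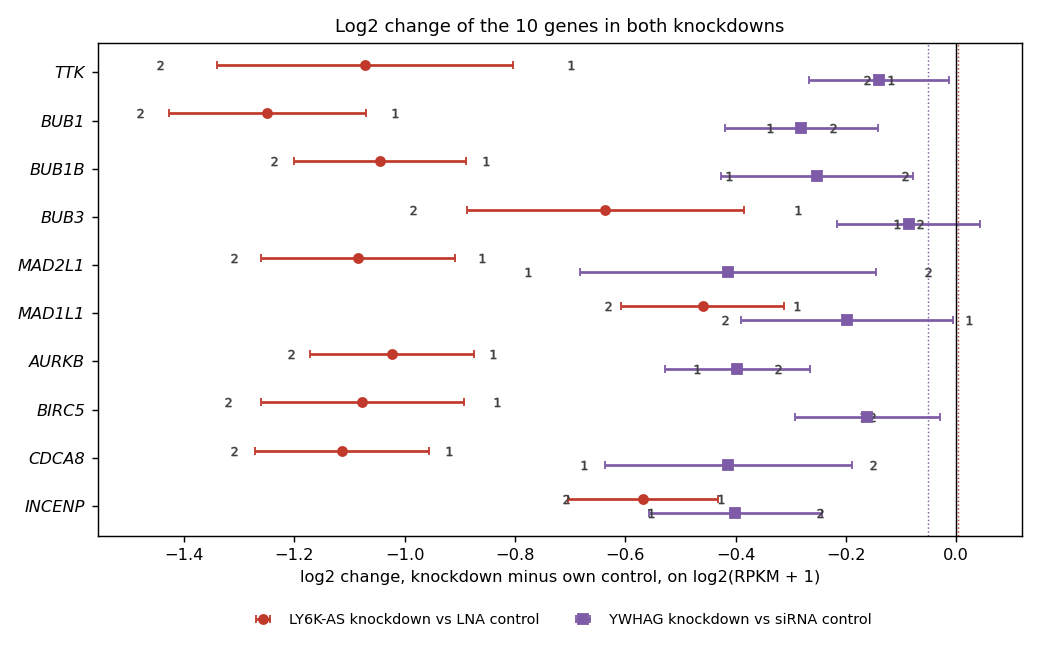
Log2 change of each gene (x axis, knockdown minus its own control on log2(RPKM + 1)) after LY6K-AS knockdown (circles) and YWHAG knockdown (squares), with standard errors of the fit; the digits 1 and 2 mark each knockdown library against the control mean, and dotted lines the median of all genes tested. The circles lie between −1.25 and −0.46 and the squares between −0.41 and −0.09, and INCENP has the smallest distance between its circle and square.

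The difference between the knockdown effects was then tested over all 8 libraries, with each effect measured within its own table. The LY6K-AS effect was the more negative for 10 of 10 genes (median difference −0.69 on the log2 scale, beside 0.04 for the 12861 genes tested in both tables). An unadjusted p under 0.05 was reached by 5 of 10, against 8.86% of all genes in this direction, and an adjusted p under 0.05 by 0 of 10, against 0.179% of all genes (23 genes). BUB1 differed by −0.97 ± 0.24 (SE, n = 2 libraries in each of 4 groups; limma adjusted p = 0.110) and BIRC5 by −0.92 ± 0.24 (adjusted p = 0.118). TTK differed by −0.93 ± 0.31 (limma adjusted p = 0.171), BUB1B by −0.79 ± 0.25 (0.152) and AURKB by −0.63 ± 0.20 (0.164). INCENP differed by −0.17 ± 0.22 (limma adjusted p = 0.697) and MAD1L1 by −0.26 ± 0.26 (0.598). Over the fits without 1 library INCENP ran from −0.32 (without YWHAG knockdown 1) to −0.01 (without YWHAG knockdown 2). MAD1L1 ran from −0.48 (without YWHAG knockdown 2) to −0.04 (without YWHAG knockdown 1), so the order of these 2 genes depends on single libraries. With the GC trend removed they differed by −0.37 and −0.53. Both standard errors are wide for these sizes, so a like effect of the knockdowns on INCENP and MAD1L1 is not shown. Without LY6K-AS knockdown 1, 5 of the 10 genes passed in this comparison and 1185 genes did in all, 718 did without YWHAG knockdown 1 and 735 without YWHAG knockdown 2 (0 of the 10 genes in either), and 0 did without any 1 control library or without LY6K-AS knockdown 2.

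The share of INCENP among the passenger transcripts was larger after LY6K-AS knockdown. Of the summed RPKM of the 4 passenger genes, INCENP made up 23.8 and 25.7% in the LY6K-AS knockdowns, against 17.96 and 19.7% in the LNA controls. The groups did not overlap in this share, and the ratio of AURKB to INCENP was 1.36 and 1.28 in the knockdowns, against 1.94 and 1.69 in the controls. In the YWHAG knockdowns INCENP made up 15 and 16.3%, against 16.8 and 16.5% in the siRNA controls. The summed passenger RPKM was 94.9 and 71.8 in the LY6K-AS knockdowns, against 162 and 165 in the LNA controls, and 73.3 and 84.7 in the YWHAG knockdowns, against 101 and 98.9 in the siRNA controls. The ratio of MAD2L1 to its template MAD1L1 was 1.14 and 1.05 in the LY6K-AS knockdowns, against 1.88 and 1.71 in the LNA controls, and 3.18 and 9.60 in the YWHAG knockdowns, on either side of 6.19 and 5.83 in the siRNA controls. With the GC trend removed the log2 changes of MAD2L1 and MAD1L1 after LY6K-AS knockdown were −0.88 and −0.75, so the gap between them was smaller than in the values above. The ratio of BUB3 to BUB1 was 2.24 and 1.93 in the LY6K-AS knockdowns, against 1.29 and 1.27 in the LNA controls. It was higher in the YWHAG knockdowns too, at 1.066 and 1.010, against 0.805 and 1.007 in the siRNA controls, with knockdown 2 just above the higher control. With 2 libraries a group an exact permutation test of such a ratio cannot give a two-sided p below 0.333. Levels of different genes are compared here per kilobase of merged exon length, which counts every annotated exon once and so depends on the annotation.

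**Figure D3:**
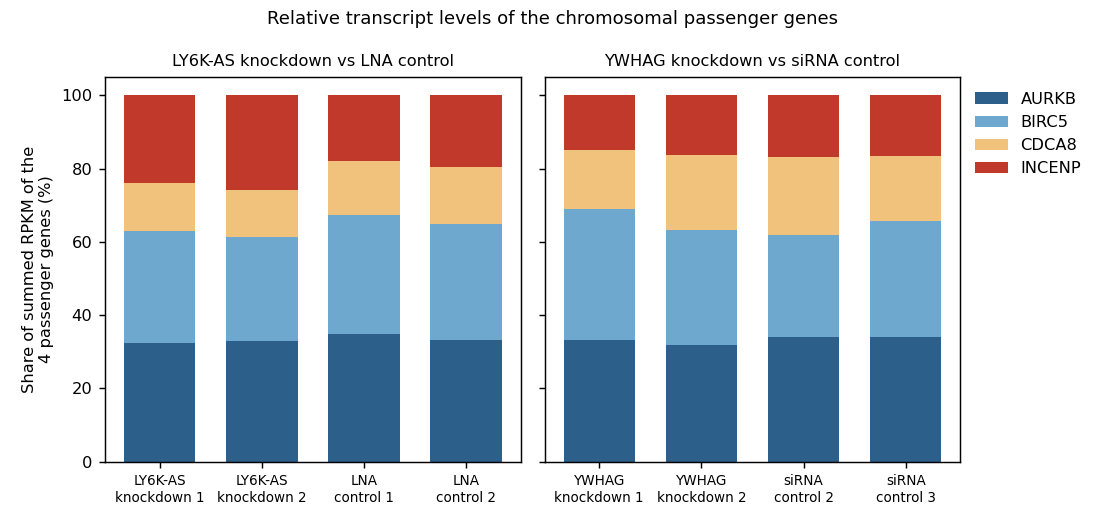
Share of each gene in the summed RPKM of AURKB, BIRC5, CDCA8 and INCENP (y axis, percent), with 1 stacked bar per library. The INCENP segment is larger in the LY6K-AS knockdowns (23.8 and 25.7%) than in the LNA controls (17.96 and 19.7%), and lies between 15 and 16.8% in the siRNA table.

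AURKB and BIRC5 were the 2 highest of the 10 genes in all 4 groups, at 27.1 ± 5.02 and 24.8 ± 6.10 RPKM (mean ± SD, n = 2) in LY6K-AS knockdown cells and 55.7 ± 1.097 and 52.5 ± 0.176 RPKM in LNA controls. MAD1L1 was the lowest in 3 groups (3.08 RPKM was the second lowest in LY6K-AS knockdown cells, where TTK was lowest at 2.59 RPKM). In the LNA controls the ranges over libraries of no 2 neighbours in the order overlapped. In the LY6K-AS knockdowns 6 of 9 neighbouring pairs overlapped, in the YWHAG knockdowns 6 of 9 and in the siRNA controls 4 of 9. These ranges ignore that both genes of a pair were measured in the same libraries. Taken within a library, the order of the 10 genes was the same in both LY6K-AS knockdowns. INCENP ranked 3 in both LNA groups, 7 in the YWHAG knockdowns and 6 in the siRNA controls. The tables were normalized separately, so their levels are not set against each other.

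Other genes of the same pathway also had lower values after LY6K-AS knockdown. Of 24 further checkpoint and passenger partners 23 were tested (AURKC, the germ-cell paralog of AURKB, was below the filter), and 22 had both knockdown libraries below both controls, against 30.5% of all genes. Their median log2 change was −0.86, beside 0.00 for all genes, 21 had an unadjusted p under 0.05 with a lower value, against 11.7% of all genes, and 0 passed after adjustment over all genes. The smallest p belonged to the NDC80 complex subunit SPC25, with 1.43 and 1.30 RPKM in the knockdowns, against 3.98 and 4.001 RPKM in the controls (limma adjusted p = 0.103). ZWINT, a KNL1 partner, had 27.6 and 25.2 RPKM, against 51.9 and 52.9 RPKM, and TRIP13, the ATPase that opens MAD2L1 again, had 16.0 and 12.8 RPKM, against 26.2 and 26.1 RPKM. In each of these 3 genes knockdown 2 was the lower library. KNL1 had 1.93 and 1.19 RPKM in the knockdowns, against 3.83 and 3.89 RPKM in the controls. CDC20, which the checkpoint complex sequesters, had 47.1 and 38.7 RPKM in the knockdowns, against 71.9 and 73.5 RPKM in the controls. MAD2L1BP (p31comet), which works with TRIP13 to switch the checkpoint off, was the exception, with 8.96 and 8.20 RPKM in the knockdowns and 9.66 and 8.53 RPKM in the controls, an overlap.

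After YWHAG knockdown 15 of the 23 tested partners lay below both controls, against 30.8% of all genes, and 6 had an unadjusted p under 0.05 with a lower value, against 8.9% of all genes. Their median log2 change was −0.24, beside −0.05 for all genes, and 0 passed. The smallest p belonged to CCNB1, cyclin B1, with 81.5 and 80.1 RPKM in the knockdowns, against 118 and 106 RPKM in the siRNA controls (limma adjusted p = 0.251). MAD2L1BP had 7.97 and 7.60 RPKM, against 11.6 and 10.3 RPKM, and NDC80 had 3.96 and 3.16 RPKM, against 5.34 and 4.80 RPKM. KNL1 had a log2 change of −0.33 ± 0.14, CDC20 of −0.12 ± 0.12 and TRIP13 of −0.02 ± 0.22 (limma adjusted p from 0.324 to 0.977).

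A list of 25 proliferation and cell cycle transcription genes was read beside the 10, as such transcripts are most abundant in dividing cells. After LY6K-AS knockdown 21 of 25 lay below both controls, against 30.5% of all genes, with a median log2 change of −0.65, beside 0.00 for all genes. MKI67, the proliferation antigen, had 18.9 and 14.9 RPKM in the knockdowns, against 36.9 and 38.8 RPKM in the controls, and the regulators of G2/M genes MYBL2 (39.8 and 31.6 RPKM, against 61.2 and 66.0 RPKM) and FOXM1 (19.2 and 15.7 RPKM, against 28.7 and 31.1 RPKM) were lower too. PCNA, the replication clamp, had 154 and 191 RPKM, against 231 and 229 RPKM, with knockdown 1 the lower, unlike the 10 genes. CDKN1A, the cyclin-dependent kinase inhibitor p21, was higher, with 158 and 234 RPKM, against 59.7 and 59.0 RPKM, and highest in knockdown 2, in which all 10 genes were lowest. After YWHAG knockdown 11 of 25 lay below both controls, against 30.8% of all genes, with a median log2 change of −0.16, beside −0.05 for all genes. An unadjusted p under 0.05 was seen for 4 lower genes, against 8.9% of all genes, and 2 higher ones, against 7.51%. MKI67 had 35.2 and 30.7 RPKM, against 51.5 and 39.4 RPKM, and CDKN1A 43.3 and 51.7 RPKM, against 33.7 and 34.3 RPKM. FOXM1 (log2 change −0.56), MYBL2 (−0.16) and PCNA (−0.25) had lower means there too. The part that a change in the number of dividing cells has in these values was not tested.

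**Figure D4:**
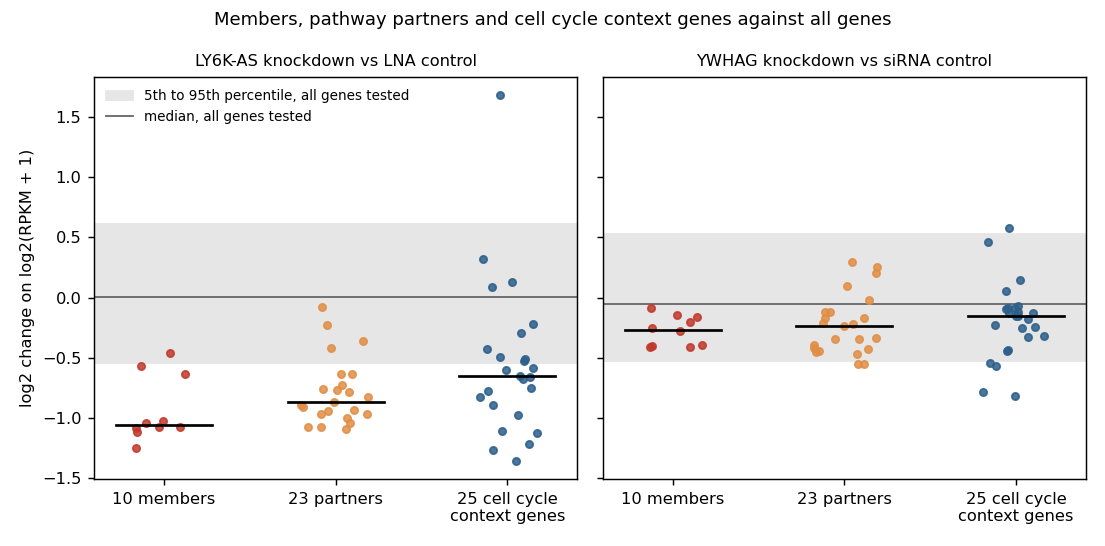
Log2 change (y axis, on log2(RPKM + 1)) of the 10 genes, 23 pathway partners and 25 cell cycle context genes after LY6K-AS knockdown (left) and YWHAG knockdown (right), with a bar at each median; grey marks the 5th to 95th percentile of all genes tested and its median. Medians are −1.06, −0.86 and −0.65 on the left and −0.27, −0.24 and −0.16 on the right.

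Over the 8 libraries, each centred on its own table, the protein-coding genes whose pattern was most like the mean of the 10 were HMGB3 (Pearson r 0.996, n = 8 libraries), FEN1 (0.995), CIP2A (0.995), CDK1 (0.995), SGO2 (0.994) and KIF15 (0.993). The points share libraries and 2 groups of controls, and 4.996% of all 10988 protein-coding genes had an r above 0.9, so the likeness is shared widely. Among these genes AURKB ranked 7 (r 0.992) and BUB1 11 (0.991) in likeness to the mean they belong to, and MAD1L1 ranked lowest of the 10, at 1378 (0.776).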

How the data were processed

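RNA of 8 A549 libraries was profiled in 4 groups of 2. The authors deposited RPKM in 2 tables normalized separately, and the submitters' processing notes list STAR, featureCounts, Subread, Picard and genome build hg38, without version or role. Identifiers were matched to GENCODE release 29 (57055 of 66206 rows, 52238 with the same version, the 10 genes among them). Multiplied by gene length, the deposited RPKM of same-version genes gave whole reads for 100% of values within 0.05 reads, with end minus start of the gene as length in the LNA table and, for the siRNA table, with the length of merged exons. The LNA values were therefore rescaled to merged exon length. The sources used here do not say whether that table counts reads in introns, so its levels are uncertain for genes with long introns such as MAD1L1. Unmatched identifiers were left out of the LNA tests.

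Genes with at least 0.5 RPKM in at least 2 of 4 libraries were tested with limma 3.58.1 (R 4.3.3) on log2(RPKM + 1) with an intensity trend, two-sided, with Benjamini-Hochberg adjustment over all genes tested and a threshold of 0.05. Each knockdown was fitted with its own controls, and the difference of effects over all 8 libraries. The fit was tested on simulated data. Precision is limited by depth (3 reads correspond to 0.0868 to 0.115 RPM) and by 2 libraries a group. Replicates differed by more than sampling noise (chi-square per degree of freedom 9.34 to 117).

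Named were the 10 genes, the targets, 3 partners with the smallest p per comparison plus KNL1, CDC20 and TRIP13, 5 context genes and 6 genes of like pattern. Members and lists were chosen with earlier results of these data known. Alternatives were other pseudocounts, filters, scaling, voom on recovered reads, GC correction, the deposited RPKM, a replicate block, pooled spread and leaving out each library.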

Additional observations from a re-analysis of the deposited data

How the results depend on the processing

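The 10 genes kept a lower value after LY6K-AS knockdown under each alternative run for it. The difference of effects, run with other pseudocounts, the RPKM of at least 2 (without MAD1L1, which that filter removed), TMM scaling, the GC trend removed and each library left out, kept its sign; it was not run on deposited RPKM, recovered reads, unfiltered genes or with the block. After YWHAG knockdown MAD1L1 alone turned, ranging from −0.42 without YWHAG knockdown 1 to 0.023 without YWHAG knockdown 2. The number of genes called after LY6K-AS knockdown was 0 and ran from 0 to 7725 over the fits without 1 library, with 64 when the spread was pooled over 8 libraries; after YWHAG knockdown it was 0 in each fit without 1 library, and 214 with the pooled spread. For the difference of effects it was 23, with 72 at an RPKM of at least 2, 53 with TMM scaling (trimmed mean of M values) and 0 to 1185 over the fits without 1 library. The median change of the 10 after LY6K-AS knockdown was −0.71 on the RPKM as deposited, where division by the gene's span brings long genes close to the pseudocount. MAD1L1 had −0.04 there, against −0.46 in the same knockdown per kilobase of merged exon length. The cause of the differences between the other settings was not tested. With the replicate number as a block the LY6K-AS comparison called 0 genes; same-numbered libraries deviated together only weakly (Pearson r 0.08 across genes), so the numbers were not taken as pairs. No paired analysis was possible for YWHAG because the control columns carry other numbers than the labels. Count tests other than voom were not run, since the deposited unit is RPKM. Each value of the 10 genes rests on 238 reads or more, and 2 libraries a group limit every test here.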
